A study of Mus musculus with 7 samples.

Results

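Double-stranded RNA sensing genes were examined in tumour cells of the mouse colon that lack or keep the RNA-binding protein gene Mex3a. The set holds 10 genes of 17097 genes named on the array: the sensors Ifih1, Ddx58, Dhx58, Tlr3 and Zbp1, the adaptor Mavs, the RNA editor Adar, the kinase Eif2ak2 and the transcription factors Irf3 and Irf7. Its members were all probe sets that the platform annotation pairs with exactly 1 of these symbols, 20 of 28898 probe sets paired with 1 gene. The set was selected on the KO against WT log2 levels of these arrays, in which Ifih1 was already known to differ, to ask whether the other sensors and adaptors share its difference. Every KO against WT value of a member below is therefore a description and carries no test of its own.

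The 3 KO arrays came from mice with Mex3a tom/flox, and the 4 WT arrays from mice with Mex3a Tom/+; both groups also carried Villin CreERT2 and APC fl/+. Villin CreERT2 is a tamoxifen-activated recombinase driven by a gut epithelial promoter, so recombination of Mex3a and of 1 Apc allele was directed to the gut epithelium. Tomato reports activity of the Mex3a promoter in both groups, so the cells studied are those in which that promoter was on. The sources used here do not give the age of the mice, whether the Tomato allele still makes Mex3a, or whether adenomas or animals were pooled. All mice received 4 doses of tamoxifen and then 2% DSS (dextran sulfate sodium), which inflames the colon, for 5 days. Colon adenomas were taken 2 months later, counted from the end of DSS in the design text and from induction in the growth protocol. Cells positive for Epcam, an epithelial surface protein, and for Tomato were sorted, and RNA of 2000 cells was amplified over 24 cycles before Affymetrix hybridisation. The labels do not tie arrays to animals, so any p-value reflects array-to-array spread alone, part of which could be technical. In such bulk samples, fewer cells of a type and less RNA per cell cannot be told apart.

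Values are log2 levels per probe set, so a difference of 1 is a doubling. The median level per array lay between 5.96 and 5.97 in KO and between 5.96 and 6.00 in WT, and the number of arrays limits the precision. Mex3a stood at 6.18, 6.29 and 6.07 in KO replicates 1 to 3, against 7.41, 7.38, 7.50 and 7.01 in WT replicates 1 to 4, so every KO array lay below every WT array. The epithelial marker Epcam stood at 11.88 to 11.99 in KO and 11.87 to 11.99 in WT, and all 11 colon epithelium markers passed the filter on low levels. Of 19 leukocyte markers on the array 5 fell below that filter, among them the T-cell gene Cd3e and the macrophage gene Adgre1. The pan-leukocyte gene Ptprc also fell below it, at 4.07 to 4.25 in KO and 4.02 to 4.11 in WT. The other 14 passed, among them Cd4, at 7.13 to 7.16 in KO and 6.96 to 7.22 in WT. Cd68 stood at 7.06 to 7.53 in KO and 7.04 to 7.66 in WT, and Csf1r at 6.78 to 6.96 and 6.83 to 7.08. The mean log2 level of the leukocyte list was 6.20 to 6.33 in KO and 6.15 to 6.30 in WT, and its summed linear level was 6618 to 7241 in KO and 4444 to 6337 in WT. Of its members, Lyz2, the lysozyme of macrophages, was higher in all KO than in all WT arrays, as were 2.68% of all genes. It stood at 12.39 to 12.53 in KO and 11.63 to 12.30 in WT, and was named after its values were seen. Lyz2 made up most of the summed level, since the highest other marker was Cd68, at up to 7.66. Of the 14 leukocyte markers tested 5 had a positive and 9 a negative difference, with a median of -0.03. The part of leukocyte RNA in the results below was not tested. Y-linked transcripts were present in KO replicate 3 and WT replicate 2 (mean log2 level 7.62 and 7.47 over 3 genes) and near background in the other arrays (4.41 to 4.53). The X-linked transcript Xist went the other way, at 5.05 in KO replicate 3, 6.89 in WT replicate 2 and 11.08 to 11.45 in the other arrays.

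Long double-stranded RNA is a mark of viral infection and also forms from transposon and mitochondrial transcripts of the cell itself. In the cytosol it is bound by Ifih1 (MDA5, long duplexes) and Ddx58 (RIG-I, duplex ends with a 5′ triphosphate); both signal through Mavs on mitochondria, while Tlr3 reads double-stranded RNA in endosomes. These routes activate Irf3 and Irf7, which switch on interferon genes. Interferon in turn raises many of the sensors, and Adar edits cellular duplexes so that they escape Ifih1.

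Interferon acts on such genes through the interferon-stimulated response element, whose core is read by IRF and STAT factors, so the start regions of the members are shown first. RefSeq windows of 250 bases before to 50 bases after the transcript start (GRCm38.p6) were at hand for 8 members, with 10 windows in all; Dhx58 and Zbp1 are named only. Capitals mark matches, on either strand, to a response-element core of GAAA, any 2 bases and GAAA, or to the shorter AANNGAAA; each match to the longer string contains one to the shorter. Only windows with a match are shown. They are those of Ifih1 and Tlr3, whose KO and WT arrays did not overlap, and of Ddx58, Eif2ak2 and Adar. Levels of Ddx58, Eif2ak2 and Adar were highest in the same pair of arrays. So were those of Irf7, whose window held no match, and of Zbp1, which had no window.
Ifih1, chr2:62646206-62646505, minus strand: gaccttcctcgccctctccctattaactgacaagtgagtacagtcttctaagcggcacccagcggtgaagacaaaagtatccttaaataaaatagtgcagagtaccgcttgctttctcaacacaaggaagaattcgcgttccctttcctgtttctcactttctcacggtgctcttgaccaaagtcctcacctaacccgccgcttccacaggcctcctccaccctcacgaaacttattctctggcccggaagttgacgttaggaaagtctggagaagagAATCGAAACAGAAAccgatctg
Tlr3, chr8:45410331-45410630, minus strand: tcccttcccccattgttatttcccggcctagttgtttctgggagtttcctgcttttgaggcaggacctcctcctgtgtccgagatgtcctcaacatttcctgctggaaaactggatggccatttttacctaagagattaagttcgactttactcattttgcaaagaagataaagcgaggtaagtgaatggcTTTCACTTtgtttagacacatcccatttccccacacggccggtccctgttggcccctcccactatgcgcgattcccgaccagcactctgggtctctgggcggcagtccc
Ddx58, chr4:40239776-40240075, minus strand: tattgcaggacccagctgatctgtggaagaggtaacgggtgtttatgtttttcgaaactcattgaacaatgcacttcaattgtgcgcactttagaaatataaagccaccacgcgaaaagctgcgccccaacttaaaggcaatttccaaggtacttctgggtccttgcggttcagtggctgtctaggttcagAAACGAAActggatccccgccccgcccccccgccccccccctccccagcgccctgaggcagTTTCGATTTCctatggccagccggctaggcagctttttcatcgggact
Eif2ak2, chr17:78882523-78882822, minus strand: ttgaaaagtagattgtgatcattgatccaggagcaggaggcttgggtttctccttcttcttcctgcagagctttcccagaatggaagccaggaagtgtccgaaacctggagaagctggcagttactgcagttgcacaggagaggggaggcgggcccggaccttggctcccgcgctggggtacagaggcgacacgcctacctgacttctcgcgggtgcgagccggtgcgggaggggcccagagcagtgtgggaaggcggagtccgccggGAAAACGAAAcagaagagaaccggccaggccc
Adar, chr3:89730468-89730767, plus strand: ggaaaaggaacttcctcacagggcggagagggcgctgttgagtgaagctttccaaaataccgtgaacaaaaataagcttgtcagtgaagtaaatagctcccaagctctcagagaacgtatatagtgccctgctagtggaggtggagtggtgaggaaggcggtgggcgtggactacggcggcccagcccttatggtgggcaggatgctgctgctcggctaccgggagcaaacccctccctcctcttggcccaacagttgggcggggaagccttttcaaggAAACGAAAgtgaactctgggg

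The longer string was found in the windows of 3 members, Ifih1, Ddx58 and Eif2ak2, and in 3.44% of all 32851 windows of this length. In Ifih1 the match lay at positions 33 to 42 after the start, in Eif2ak2 at 19 to 28, and in Ddx58 at 3 to 12 on the opposite strand. AANNGAAA was found in 5 members, against 23.9% of all windows. Ddx58 held it also at positions -59 to -52. Tlr3 held it at positions -59 to -52, on the opposite strand and counted back from the start, and Adar at positions 30 to 37 after the start of the last of its 3 windows. The windows of Mavs, Irf3 and Irf7 and the other 2 of Adar held neither string.

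Among the receptors and sensors, Ifih1 was higher in every KO array than in every WT array. Its level was 6.74, 6.41 and 6.54 in KO replicates 1 to 3, against 6.15, 5.91, 5.77 and 5.76 in WT replicates 1 to 4. The lowest KO array thus stood above the highest WT array, WT replicate 1. The means were 6.56 ± 0.17 in KO (SD, n = 3) and 5.90 ± 0.18 in WT (SD, n = 4). The fitted difference, with scan batch as a covariate, was 0.71 (SE 0.08), a 1.63-fold higher level in KO. It was 0.71 within scan batch 1, where KO is 1 array, and 0.71 within scan batch 2. With 1 array left out it stayed between 0.67 and 0.75. With both arrays of Y-linked signal left out it was 0.62.

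Tlr3, the endosomal sensor, followed the same order of groups with a smaller difference. Its brighter probe set read 9.00, 8.82 and 8.81 in KO, against 8.71, 8.51, 8.53 and 8.48 in WT, with no overlap. The difference was 0.34 (SE 0.09), or 1.27-fold, with 0.39 within scan batch 1 and 0.31 within scan batch 2. Leaving out 1 array gave 0.30 to 0.37. The name of this probe set carries the suffix s, which Affymetrix gives to sets whose probes match more than one transcript. The other Tlr3 probe set lay below the level filter, at 4.26 to 4.27 in KO and 4.14 to 4.25 in WT. Its groups did not overlap either, but the difference was only 0.05 (SE 0.04), and averaging both sets brought Tlr3 to 0.19.

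**Figure D1:**
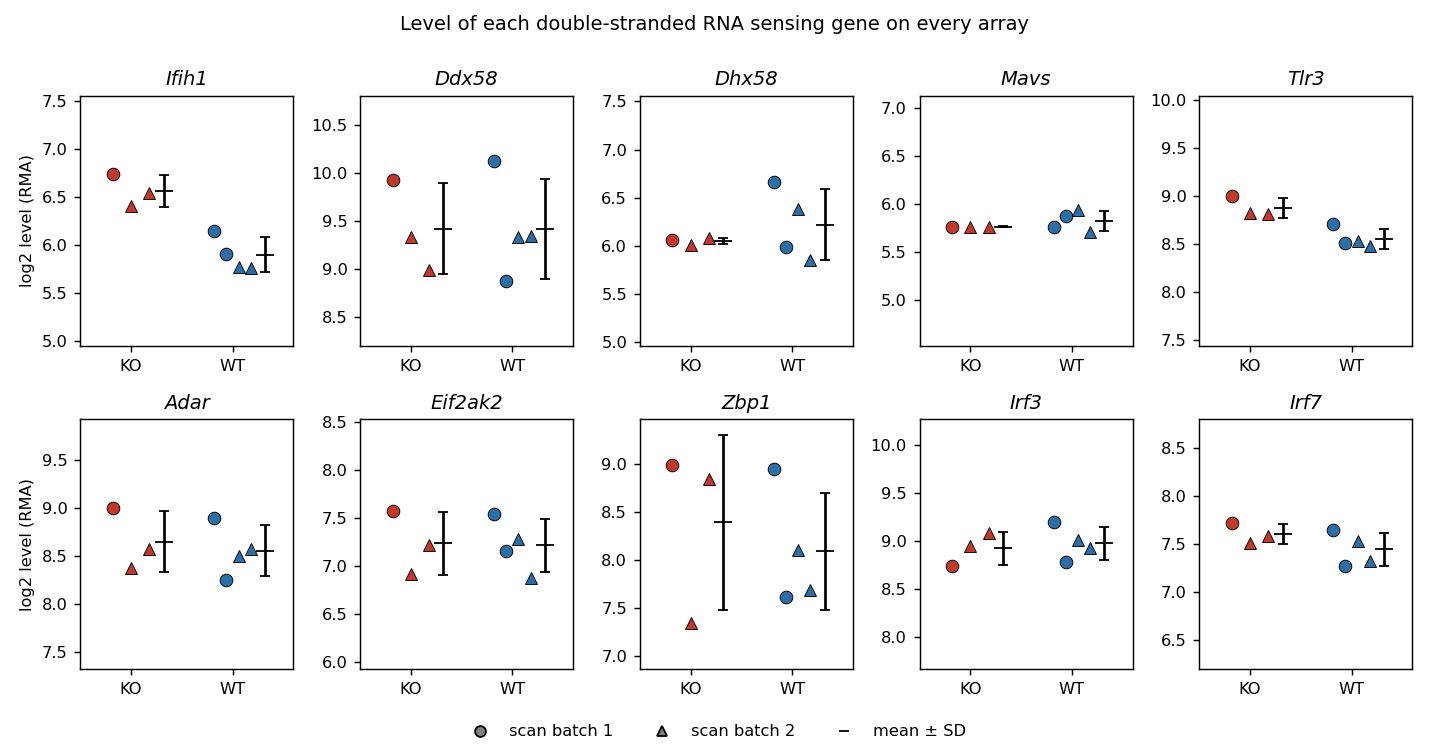
Log2 level (y axis, RMA) of the 10 genes on each array, KO left in red and WT right in blue; circles are scan batch 1, triangles scan batch 2, and black bars the mean ± SD. Each panel spans the same number of log2 units. KO and WT points are separate for Ifih1 and Tlr3 and overlap for the other 8.

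Ddx58, which like Ifih1 signals through Mavs, did not separate the genotypes. It read 9.93, 9.34 and 9.00 in KO, against 10.13, 8.87, 9.34 and 9.34 in WT. KO replicate 1 and WT replicate 1 were the highest, and KO replicate 3 and WT replicate 2, the pair with Y-linked signal, were the lowest, as they were for 4.63% of all genes tested. The part of this signal in the result was not tested. The means were 9.42 ± 0.47 in KO (SD, n = 3) and 9.42 ± 0.52 in WT (SD, n = 4), and the difference of 0.07 (SE 0.28) was within the spread. It was 0.43 within scan batch 1 and -0.17 within scan batch 2. The other 2 probe sets differed by 0.08 (SE 0.18) and 0.04 (SE 0.09).

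Dhx58 (LGP2), the third RIG-I-like receptor, binds RNA but lacks the domain that signals to Mavs. It was at 6.06, 6.01 and 6.08 in KO, against 6.66, 5.99, 6.38 and 5.86 in WT. The KO arrays lay close together inside the WT range, with a difference of -0.15 (SE 0.18). A second probe set differed by -0.03 (SE 0.22), and the third, below the level filter, by 0.03 (SE 0.09).

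Zbp1, which binds left-handed (Z-form) double-stranded RNA and can start necroptosis, varied most between arrays. Its brighter probe set read 8.98, 7.34 and 8.84 in KO, against 8.95, 7.61, 8.10 and 7.69 in WT. KO replicate 2 was the lowest of all arrays and KO replicate 1 the highest, so the KO arrays spanned the whole WT range. The difference was 0.40 (SE 0.42); it was 0.83 without KO replicate 2, 0.07 without KO replicate 3 and -0.30 when both arrays with Y-linked signal were left out. The other probe set spanned 7.06 to 7.27 in KO and 6.97 to 7.11 in WT, a difference of 0.09 (SE 0.09).

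The adaptor Mavs was nearly flat. It stood at 5.76, 5.77 and 5.77 in KO, against 5.77, 5.88, 5.94 and 5.71 in WT, a difference of -0.06 (SE 0.07). Its full range over the 7 arrays was 0.23 log2 units.

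Adar and Eif2ak2 act on duplex RNA without passing a signal through Mavs: Adar deaminates adenosines in it, and Eif2ak2 (PKR) is activated by it and halts translation by phosphorylating eIF2α. The brightest Adar probe set read 8.99, 8.37 and 8.57 in KO, against 8.89, 8.24, 8.50 and 8.57 in WT. Again KO replicate 1 and WT replicate 1 were the highest, and the difference was 0.13 (SE 0.18). The 3 Adar probe sets disagreed in sign: another gave -0.29 (SE 0.19), where KO replicate 1 stood apart at 6.79 against 7.74 and 7.82 in KO replicates 2 and 3 and 7.52 to 7.79 in WT. The remaining set gave -0.11 (SE 0.15), with WT replicate 1 at 6.28 and all others between 5.61 and 5.78. Which Adar transcript each set reads was not analysed here.

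Eif2ak2 was at 7.58, 6.92 and 7.22 in KO, against 7.55, 7.16, 7.28 and 6.88 in WT. The groups covered nearly the same range, with a difference of 0.08 (SE 0.15), 0.22 within scan batch 1 and -0.01 within scan batch 2.

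Of the transcription factors, Irf3 is made constitutively and activated by phosphorylation, whereas Irf7 is itself induced by interferon. Irf7 read 7.72, 7.51 and 7.58 in KO, against 7.64, 7.27, 7.53 and 7.33 in WT. WT replicates 1 and 3 lay among the KO arrays, and the difference of 0.17 (SE 0.11) lay between 1 and 2 SE. Irf3 read 8.73, 8.94 and 9.08 in KO, against 9.19, 8.78, 9.01 and 8.92 in WT, a difference of -0.07 (SE 0.13). All 3 Irf3 probe sets gave negative differences, -0.21 (SE 0.12), -0.14 (SE 0.15) and the value above, each with overlapping groups.

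**Figure D2:**
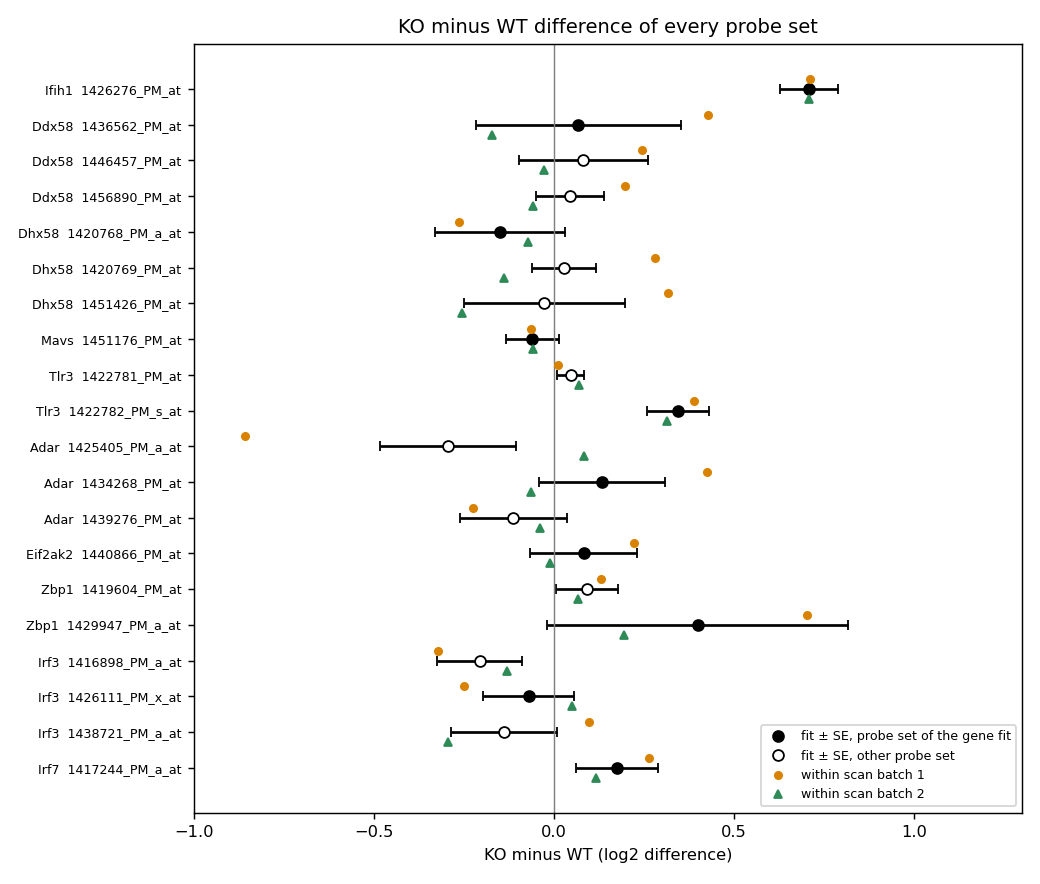
KO minus WT log2 difference (x axis) of all 20 probe sets, with bars of 1 SE; filled black points mark the probe set used for its gene, open points the others, orange circles the difference within scan batch 1 and green triangles that within scan batch 2. Ifih1 stands farthest to the right with both batches at 0.71, while all 3 Ddx58 sets and 2 of the 3 Adar sets have batch values on both sides of 0.

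No other member had a difference as large as that of Ifih1; the nearest were Zbp1, at 0.40 with an SE of 0.42, and Tlr3, at 0.34. All 10 members passed the filter on low levels, which kept 12822 genes, and 18 of their 20 probe sets lay above it. Limma called 0 of the 10 members at an adjusted p under 0.05, where it called 0% of all genes tested. At an unadjusted p under 0.05 it listed 2 members, both higher in KO, against 7.14% of all genes higher and 4.26% lower. Groups did not overlap for the same 2 members, Ifih1 and Tlr3; over all genes 2.68% were separate with KO higher and 3.23% with KO lower. Of the 10 members 7 had a positive and 3 a negative difference, with a median of 0.11 beside -0.02 over all genes, where 43.9% were positive. The difference was under 1 SE for 7 members and over 2 SE for Ifih1 and Tlr3.

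Several members shared an order of arrays that crosses the genotypes, a description drawn after the values were seen. Ddx58, Adar, Eif2ak2, Zbp1 and Irf7 had their 2 highest levels in KO replicate 1 and WT replicate 1, as did 7.88% of all genes tested. The mean centred level of these 5 genes was 0.45, -0.30 and 0.05 in KO and 0.44, -0.36, -0.04 and -0.23 in WT. Ifih1 on the same scale was 0.56, 0.22 and 0.36 in KO and -0.03, -0.27, -0.41 and -0.42 in WT. Within each genotype, then, replicate 1 was also the highest for Ifih1 and Tlr3. For 9 members the highest array was KO replicate 1 or WT replicate 1, against 29.1% of all genes; Mavs was the exception. The mean log2 level of the leukocyte list was at its lowest in these arrays, 6.20 in KO replicate 1 and 6.15 in WT replicate 1, and that of the epithelial list was 9.93 in KO replicate 1, the low end of a range up to 10.42 over all arrays. The part of either in this pattern was not tested. Both arrays belong to scan batch 1, which also holds WT replicate 2, and neither carried Y-linked signal.

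**Figure D3:**
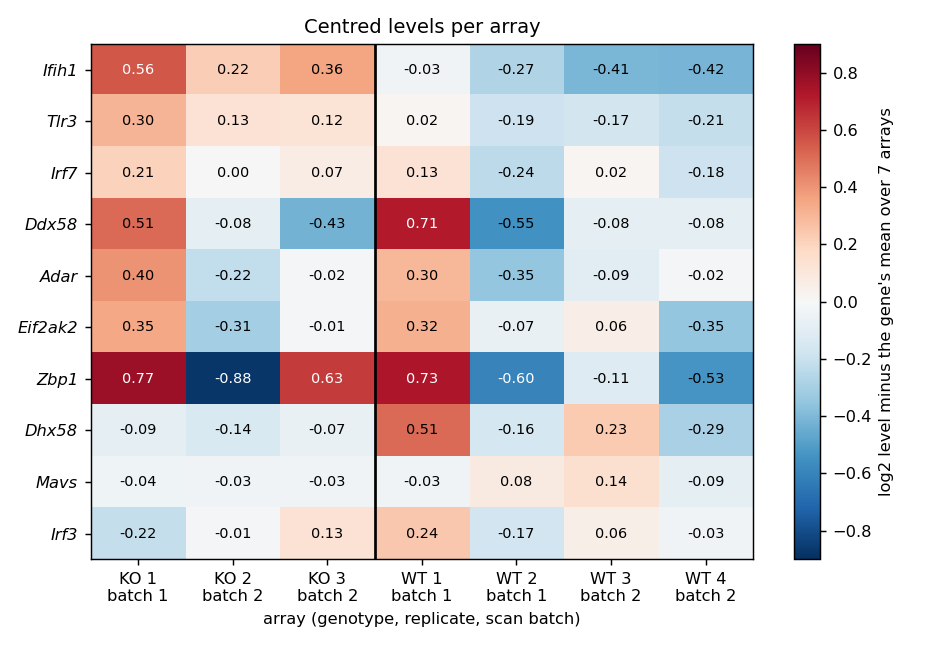
Log2 level minus the gene's own mean over the 7 arrays, for each member (rows) and array (columns, KO left of the black line, WT right), with the value printed and coloured red above and blue below the mean. Ifih1 and Tlr3 are higher on all KO than on all WT arrays, while Ddx58, Adar, Eif2ak2 and Zbp1 are red in KO replicate 1 and WT replicate 1.

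Scan batch was a contrast that played no part in choosing the genes. In the same fit 8 of 10 members were lower in scan batch 2 than in scan batch 1, with a median difference of -0.18, against 49.5% of all genes and a median of 0.00. Limma called 0 members at an adjusted p under 0.05, as it called 0% of all genes, and 2 members at an unadjusted p under 0.05, against 13.3% of all genes. Those 2 were Eif2ak2, at -0.37 (SE 0.15, limma adjusted p = 0.356), and Ifih1, at -0.27 (SE 0.08, limma adjusted p = 0.281).

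The genes whose centred profile lay nearest to that of Ifih1 were found by the root mean square distance over the 7 arrays, which favours genes that vary by a like amount. The nearest 5 were the growth hormone receptor Ghr (0.0955 log2 units), the lipid-presenting molecule Cd1d1 (0.107), the ADP-ribosyltransferase Parp14 (0.122), the inflammatory caspase Casp1 (0.124) and the cytokine receptor kinase Jak2 (0.129). Parp14 and Jak2 belong to interferon-related lists below. Tlr3 ranked 41 among all genes tested, at 0.186, Irf7 ranked 752, at 0.274, and Adar 2316, at 0.325. Zbp1 was the farthest member, at 0.550. For Irf7 the nearest were Cacna1a, Mmp11, Plaat3, Ppp1r2 and Stambp, at 0.0490 to 0.0527, and Tlr3 ranked 213, at 0.107.

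Interferon genes were mostly near background or not higher in KO. Of 11 on the array, 7 lay below the level filter, among them Ifnb1, the first interferon made after duplex RNA is sensed, at 4.94 to 4.99 in KO and 4.94 to 5.18 in WT. The 4 tested, Ifna1, Ifna5 and Ifnab among them, had negative differences, from -0.16 to -0.00, with a median of -0.11 beside -0.02 over all genes, and their groups overlapped. That median was 0.02 within scan batch 1.

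In the Jak-Stat branch, which relays interferon from its receptors, 11 of 15 tested genes had a positive and 4 a negative difference, with a median of 0.05. Jak2 was the 1 of these 15 genes without overlap, with KO higher, as in 2.68% of all genes. It read 7.94, 7.72 and 7.56 in KO, against 7.51, 7.33, 6.90 and 6.99 in WT, a difference of 0.62 (SE 0.09). The receptor chain Ifnar1 differed by 0.03 (SE 0.11), Ifngr2 by -0.03 (SE 0.11) and the kinase Jak1 by 0.05 (SE 0.09). The interferon-activated factors Stat2 and Irf9 and the feedback protease Usp18 were at 0.41 (SE 0.17), 0.13 (SE 0.21) and 0.29 (SE 0.16), each with its 2 highest levels in KO replicate 1 and WT replicate 1.

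Among 25 tested genes of Mavs and Tlr3 signalling, 11 differences were positive and 14 negative, with a median of -0.02. Groups did not overlap for 4 genes with KO higher and 2 with KO lower, against 2.68% and 3.23% of all genes. Higher in all KO arrays were Tbk1, the kinase that phosphorylates Irf3, Trim25, a ubiquitin ligase of Ddx58 signalling, Itch, a ligase that degrades Mavs, and Mex3c, a paralog of Mex3a. Tbk1 read 6.99, 6.71 and 6.70 in KO, against 6.64, 6.48, 5.68 and 6.41 in WT, a difference of 0.57 (SE 0.16). Trim25 read 8.18, 8.28 and 8.33 in KO, against 8.07, 7.93, 8.00 and 7.94 in WT, a difference of 0.27 (SE 0.09). Lower in all KO arrays were the adaptors Ticam1 (TRIF), through which Tlr3 signals, at -0.16 (SE 0.06), and Tradd, at -0.42 (SE 0.08). Ticam1 read 5.34, 5.19 and 5.34 in KO, against 5.54, 5.50, 5.42 and 5.38 in WT. The genes of highest mean level in the list were the scaffold protein Ywhae, at 0.01 (SE 0.03), the Mavs inhibitor Pcbp2, at -0.08 (SE 0.06), and the deubiquitinase Otud5, at -0.31 (SE 0.12), all with overlapping groups. Itch differed by 0.07 (SE 0.07) and Mex3c by 0.87 (SE 0.21). Itch, Mex3c and Tradd were named after their values were seen.

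Other proteins that bind duplex RNA had a positive difference in 15 of 21 genes, against 43.9% of all genes, with a median of 0.10. That median was -0.09 within scan batch 1, 0.20 without KO replicate 1 and 0.05 without WT replicate 4. The helicase Dhx9 read 9.34, 9.43 and 9.45 in KO, against 9.20, 9.23, 8.72 and 8.64 in WT, a difference of 0.50 (SE 0.13) that was 0.12 within scan batch 1 and 0.76 within scan batch 2. The helicase Dhx33, named after its values were seen, was lower in all KO arrays, at 7.79, 7.66 and 7.74 in KO, against 8.11, 8.00, 8.33 and 7.94 in WT, a difference of -0.37 (SE 0.11). Son, a splicing cofactor, differed by 0.23 (SE 0.07) without overlap, and Ddx1 and Ddx3x by 0.06 (SE 0.07) and 0.10 (SE 0.07). In this list groups were separate for 3 genes with KO higher and 1 with KO lower, against 2.68% and 3.23% of all genes. The enzymes next to Adar, Adarb1 and Adad2, were at 0.01 (SE 0.08) and 0.06 (SE 0.10).

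Effectors that answer duplex RNA gave 4 positive and 6 negative differences among 10 OAS and RNase L genes, with a median of -0.05. The sign of that median turned, to 0.08 within scan batch 1, 0.01 without WT replicate 4 and 0.07 with the lowest 50% of levels left out. Oasl2, an interferon-induced OAS-like protein, was at 0.28 (SE 0.09), Oas1g, a 2′-5′ oligoadenylate synthetase that makes the messenger of RNase L, at 0.20 (SE 0.17) and Oas1b at -0.01 (SE 0.10). Abce1, an inhibitor of RNase L, was at 0.14 (SE 0.11). Beside Eif2ak2, a list of eIF2α kinases, phosphatases and related genes gave 6 positive and 8 negative differences, with a median of -0.06. The related genes include Eif2s2, Eif2b1, Dnajc3, Atf4, Ddit3 and Nck1. Of these the phosphatase subunits Ppp1ca and Ppp1cc were at -0.10 (SE 0.04) and 0.15 (SE 0.07), and Eif2b1, a subunit of the exchange factor of eIF2, at -0.05 (SE 0.07).

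Downstream of Zbp1, the necroptosis genes Ripk3 and Mlkl were at -0.05 (SE 0.10) and 0.14 (SE 0.09), and the death-signalling genes Casp8, Casp6 and Fadd at -0.02 (SE 0.09), -0.01 (SE 0.11) and 0.02 (SE 0.09). Casp1 had the largest difference of that list, at 7.97, 7.48 and 8.04 in KO, against 7.48, 7.27, 7.17 and 7.12 in WT, or 0.61 (SE 0.14). Its groups met at a tie, KO replicate 2 with WT replicate 1, and it was 0.60 within scan batch 1 and 0.62 within scan batch 2. Of the 11 genes of that list Birc2, an inhibitor of apoptosis protein named after its values were seen, was the one without overlap, at 0.37 (SE 0.10). Over all genes 2.68% were separate with KO higher. Cytosolic DNA sensing split evenly, 7 positive and 7 negative, with a median of 0.01 that was -0.10 within scan batch 1. Sting1, the adaptor of that route, was at -0.37 (SE 0.18), the RNase H2 subunit Rnaseh2c at 0.18 (SE 0.11) and the ubiquitin ligase Dtx4 at -0.03 (SE 0.09). The other IRF genes and their partners had a median of -0.07, which was 0.09 with the probe set of largest variance. Irf1 was at 0.27 (SE 0.12), and the IRF2-binding proteins Irf2bp1 and Irf2bp2 at -0.12 (SE 0.10) and -0.14 (SE 0.06).

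Of 36 other interferon-stimulated genes on the array, 11 fell below the level filter, among them Ifit1, Ifit2, Mx1 and Mx2. Isg15 was not among the genes named on the array. Of the 25 tested the difference was positive in 21, against 43.9% of all genes, with a median of 0.17. In 1 of them, Parp14, the groups did not overlap with KO higher, as in 2.68% of all genes. Parp14 read 9.33, 8.68 and 8.98 in KO, against 8.39, 8.33, 8.28 and 8.31 in WT, a difference of 0.71 (SE 0.12). In 10 of the 25 the 2 highest arrays were KO replicate 1 and WT replicate 1, among them Xaf1, Rtp4, Ube2l6 and Ifi47, which were named after their values were seen. The abundant antiviral membrane proteins Ifitm1, Ifitm2 and Ifitm3 were at -0.14 (SE 0.08), -0.00 (SE 0.05) and -0.02 (SE 0.04). The median of the list was 0.05 without KO replicate 1 or without WT replicate 2, and -0.03 when the pair of arrays with Y-linked signal was left out. At an adjusted p under 0.05 limma called 0 genes in each of these lists, as over all genes. At an unadjusted p under 0.05 it listed 4 of the 25 other interferon-stimulated genes and 2 of the 15 Jak-Stat genes, all higher in KO, and 4 higher and 3 lower of the 25 Mavs and Tlr3 signalling genes. Of the 21 other duplex-binding genes it listed 6 higher and 1 lower. Over all genes tested it listed 7.14% higher and 4.26% lower.

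**Figure D4:**
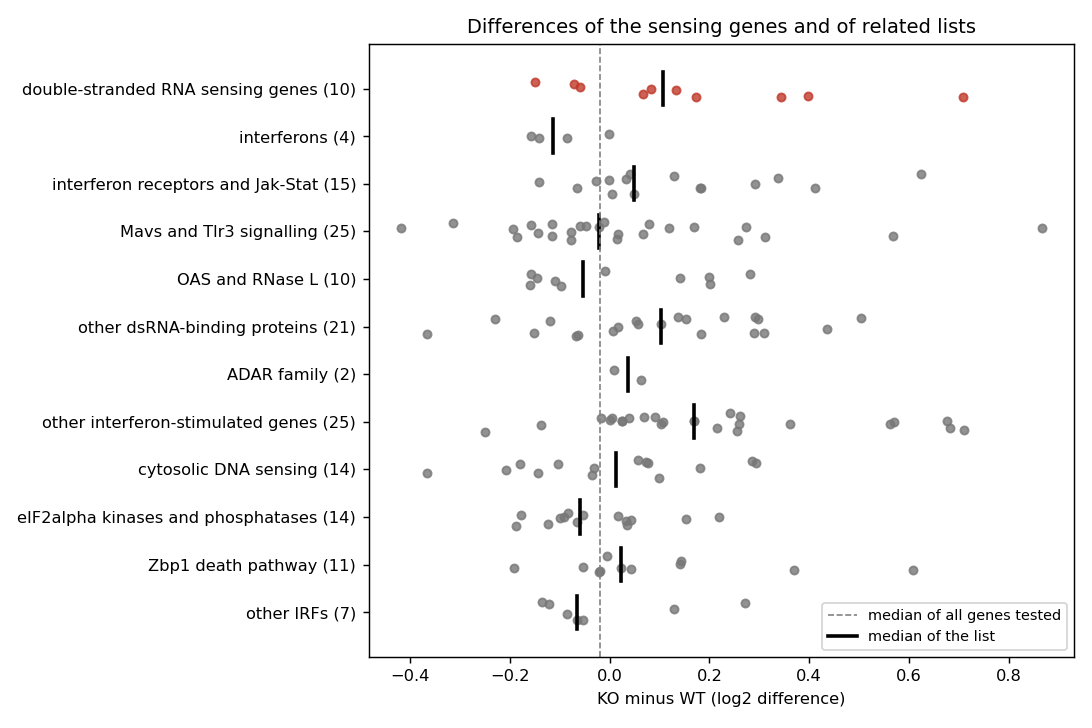
KO minus WT log2 difference (x axis) of each tested gene in the sensing set (red) and in 11 related lists (grey, number of genes in brackets), with the median of each list as a black bar and the median of all genes tested, -0.02, as a dashed line. Ifih1 is the rightmost red point at 0.71, and the medians lie between -0.11 and 0.17.

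Leaving out arrays and changing the processing left Ifih1 and Tlr3 positive under every alternative run, and turned the sign of 5 of the other 8 members under at least 1. Ifih1 ranged from 0.62 to 0.75 over 19 alternatives and Tlr3 from 0.19 to 0.39 over 20. Ifih1 has 1 probe set, so the choice of probe set, which brought Tlr3 to 0.19, could not change it. Irf7 stayed positive, at 0.06 to 0.26, and Dhx58 and Mavs stayed negative, at -0.32 to -0.03 and -0.12 to -0.00. The sign turned in 5 of 20 alternatives for Ddx58, 7 for Adar, 4 for Eif2ak2, 2 for Zbp1 and 3 for Irf3. Without KO replicate 1 Ddx58 was at -0.17, Adar at -0.06, Eif2ak2 at -0.01 and Irf3 at 0.05, and without WT replicate 2 Ddx58 was at -0.18 and Adar at -0.01. Irf3 was at 0.02 without WT replicate 1.

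**Figure D5:**
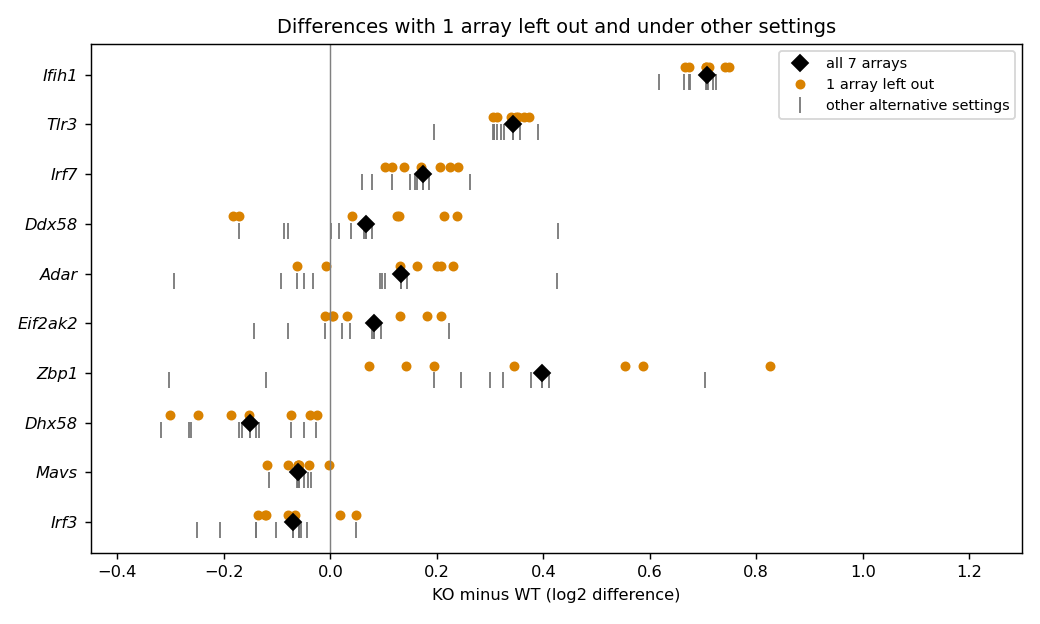
KO minus WT log2 difference (x axis) of each member with all 7 arrays (black diamonds), with 1 array left out (orange circles) and under the other alternative settings (grey ticks). The marks of Ifih1 lie between 0.62 and 0.75 and those of Tlr3 between 0.19 and 0.39, whereas those of Ddx58, Adar, Eif2ak2, Zbp1 and Irf3 lie on both sides of 0.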

How the data were processed

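The deposited log2 values per probe set were made by the authors with RMA, which corrects background, normalizes arrays together and summarises probes, per the submitters' processing notes; no source used here gives its version or says whether scan batch was corrected. There were 45141 probe sets in the table and 0 columns outside the 7 samples. RMA pulls arrays to 1 distribution, and in 19995 probe sets at least 2 arrays carry the same value, which can make a spread look small. Probe sets with several genes (551) or none were not named. Each gene took its probe set of highest mean, and the lowest 25% of genes (mean below 5.28) were left out. Genotypes were compared with limma 3.58.1 in R 4.3.3 (lmFit, eBayes with trend, scan batch as covariate, two-sided, Benjamini-Hochberg adjustment at 0.05). Scan batch 1 held 1 KO and 2 WT arrays, and scan batch 2 held 2 of each. Other probe sets of the members were fitted in the same model over all probe sets that are not controls. Members and lists were chosen with earlier results of these data known. Named are all members, those chosen after their values were seen (marked so) and, in each list, the 3 tested genes of highest mean level and a fixed set of pathway genes; the 5 nearest profiles of Ifih1 and Irf7 leave out predicted transcripts. Its code was first tested on simulated data of known differences. Alternatives covered scan batch, arrays, probe set choice, level filter, array weights, scaling and trend.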

Additional observations from a re-analysis of the deposited data

Results flagged for a closer look

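Of 20 groups of 4 WT values, 1 for each member probe set, 1 held an array far from the others, and chance alone marks about 1 in 20. It was the dim Tlr3 probe set below the level filter, where WT replicate 3 stood at 4.14 and the next lowest WT array at 4.24. The groups of 3 KO arrays were too small for this check.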

How the results depend on the processing

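The number of genes called between KO and WT was 0 with all arrays; it was 0 to 2 with 1 array left out (2 each without WT replicate 2 and without WT replicate 4, with 0 members among them) and 1370 with array weights, 977 higher and 393 lower in KO. Those weights ran from 0.297 (KO replicate 1) to 3.04 (KO replicate 2). With them 2 of the 10 members, Ifih1 and Tlr3, were among the 1370 of 12822 genes called, and neither was called under any other alternative. The set was chosen on this contrast, so these 2 calls are a description and no test of the members. With the same weights 3 members had a positive difference. With both arrays of Y-linked signal left out, an alternative chosen after seeing the data, 3 members also had a positive difference and scan batch separated 1 gene. The cause was not tested. Of 178 values of the 9 other members under alternatives 174 moved by less than the spread between replicates, and of 319 list medians 312 did. That spread, a pooled SD, was 0.75 for Zbp1 and 0.50 for Ddx58, so a value could turn sign and still count as unmoved. Dropping the level filter or the trend cannot change a member's difference. Nor can the choice of probe set for Ifih1, Mavs, Eif2ak2 and Irf7, which have 1 probe set each. Leaving out KO replicate 1 gives the same difference as scan batch 2 alone. These counts therefore do not measure stability. Ifih1, Dhx58 and Mavs have no value with the lowest 50% of levels left out. No paired analysis was possible because the labels give the genotypes no shared replicate numbers. Signal near background limits the second Tlr3 probe set, 1 Dhx58 probe set and most interferon genes. Ifih1 passed the level filter but rests on 1 probe set of low level in WT.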
